A study of Mus musculus with 10 samples.

Results

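The first hour of interferon-beta (IFN-β) in cells labelled naive was described from a single pair of libraries, naive 1 h and naive 0 h, out of 10 in the series. Both libraries are total RNA of mouse embryonic fibroblasts (MEFs), connective tissue cells grown out of embryos. Their genotype, in the naive 1 h cells as in the naive 0 h cells, is a C57BL/6 background with the H3f3b locus, which encodes histone H3.3, exchanged for a cDNA of HA-tagged H3.3. The cells of all 10 libraries carry this knock-in, so none of them shows the response of unmodified fibroblasts. IFN-β is given at 100 U/ml for the series, and hours are taken here as counted from its addition. A pretreated arm of the same genotype was sampled at 0, 1, 2, 4 and 6 h like the naive arm, and the sources used here do not give the dose and length of its pretreatment. Each arm and time has 1 library, so no difference has a replicate check, no test was made and no p-value is given. No library of unstimulated cells at 1 h was among those used, so IFN-β and an hour of handling cannot be told apart.

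Type I interferons are secreted antiviral proteins. They bind the IFNAR1 and IFNAR2 receptor chains, and the kinases JAK1 and TYK2 then phosphorylate STAT proteins. STAT2 and IRF9 are parts of ISGF3, a factor that binds the interferon-stimulated response element (ISRE) of antiviral genes. STAT dimers, such as those of STAT3 in cells where it is activated, bind a different element, the gamma-activated sequence (GAS). Because STATs are present before stimulation, the genes they bind are known to be transcribed within minutes, without new protein synthesis.

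Of 23370 gene symbols, 12168 had at least 1 RPKM (reads per kilobase of transcript, scaled to depth) in at least 2 of the 10 libraries, and 11202 did not. The gene just inside this filter was Oas1h, with a second-highest value of 1.0 RPKM, and the gene just outside was Gm17801, with 0.999 RPKM. Kept transcripts held 151.31 M counts at naive 1 h and 94.402 M at naive 0 h, 146.28 M at pretreated 1 h and 129.4 M at pretreated 0 h. In the naive pair, 11638 genes at 1 h and 11530 at 0 h reached 1 RPKM. The precursor of ribosomal RNA, Rn45s, took 1.51% of counts at naive 1 h and 1.01% at naive 0 h. Its share was 2.85% at pretreated 1 h and 3.9% at pretreated 0 h. The part of this rRNA share in the differences below was not tested. Fibroblast genes dominated both naive libraries. Col1a1, a chain of type I collagen, had 4959 RPKM at 1 h, against 4973 RPKM at 0 h, and Vim, the intermediate filament vimentin, had 2606 RPKM at 1 h and 2420 at 0 h. The fibroblast marker Lum did not pass the filter. Of 45 markers of leukocytes, endothelium, epithelium, muscle and neural cells in the table, 11 passed the filter and none of these was 2-fold apart. With 2.02% of all genes 2-fold higher and 0.181% lower, none among 11 is usual. In both libraries 15 markers were at 0 RPKM, among them Ptprc, Tyrobp, Cd3e, Myod1 and Krt18. Summed levels of the leukocyte markers were 7.75 RPKM at 1 h, against 6.53 RPKM at 0 h, and no marker of another cell type exceeded 4.11 RPKM at 1 h or 4.01 RPKM at 0 h. In bulk RNA, fewer cells of a type and less RNA per cell cannot be told apart.

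Differences are given as log2(RPKM + 1) at 1 h minus the same at 0 h, and genes were called at 2-fold, a difference of 1 in either direction. By this rule 246 of 12168 genes (2.02%) were higher at 1 h and 22 (0.181%) were lower. The median of all genes was -0.01 and the 25th and 75th percentiles were -0.15 and 0.15. At 4-fold the counts were 87 genes higher and 1 lower, at 8-fold 33 and 0, and at 32-fold 7 and 0. The 246 genes held 1.75% of all counts at 1 h and 0.356% at 0 h, and their median level was 13.5 RPKM at 1 h, against 2.36 RPKM at 0 h. At 0 h, 86 of them lay under 1 RPKM and 19 had no count at all. Of the 246 genes, 110 stand in at least 1 of the 32 gene lists used here. Another 30 were short transcripts of under 300 exonic bases, in no list.

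**Figure D1:**
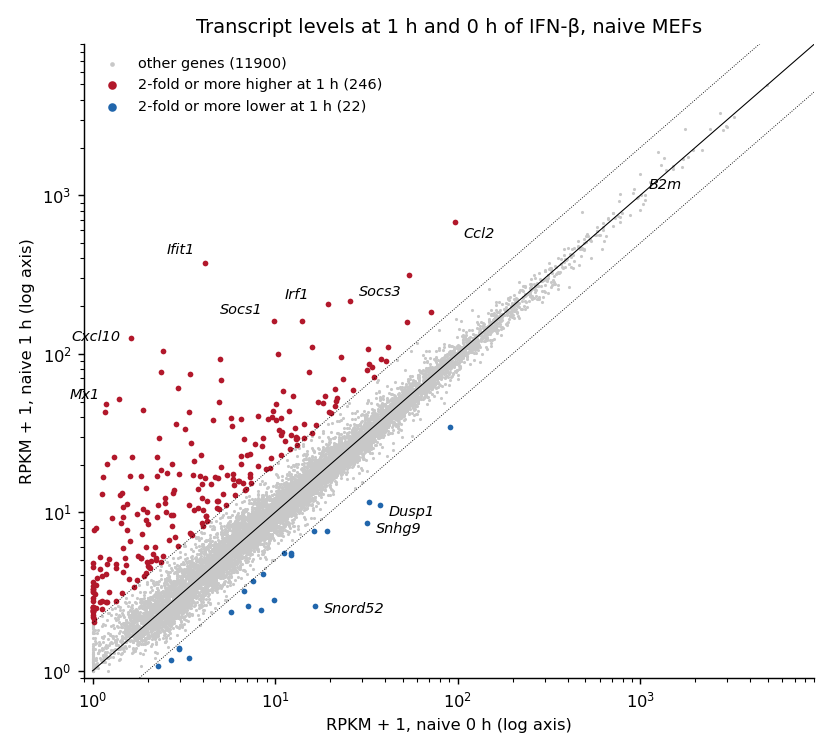
Level of each of the 12168 genes at naive 1 h (vertical axis, RPKM + 1, log scale) against naive 0 h (horizontal axis, RPKM + 1, log scale), 1 point per gene, with 246 genes 2-fold or more higher and 22 lower in colour. The cloud lies on the diagonal, and Ifit1 and Cxcl10, with log2 differences of 6.50 and 6.28, stand farthest above it.

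The largest differences belonged to antiviral genes and a chemokine. Ifit1, which encodes a protein that binds viral RNA lacking a host-type cap, had 374 RPKM at 1 h, against 3.14 RPKM at 0 h, a log2 difference of 6.50. These levels rest on 148042 and 775 counts, and the ratio of RPKM was 119, with an exact 95% interval of 111 to 128. This interval covers counting error only. Cxcl10, a chemokine that attracts activated T cells, had 126 RPKM at 1 h, against 0.631 RPKM at 0 h, a log2 difference of 6.28. Iigp1, a GTPase that attacks the vacuoles of intracellular parasites, had 103 RPKM at 1 h and 1.43 at 0 h, a difference of 5.42. Mx1 had 47.0 RPKM at 1 h, against 0.186 RPKM at 0 h, a difference of 5.34, and its close relative Mx2 had 41.7 RPKM at 1 h and 0.164 at 0 h, a difference of 5.20. Both encode dynamin-like GTPases that block virus replication, and most laboratory mouse strains are known to carry defective forms of them. Usp18, the protease that removes ISG15 from proteins and blocks the receptor chain IFNAR2, had 50.7 RPKM at 1 h, against 0.398 RPKM at 0 h, a difference of 5.21. All of these genes were at or below 3.14 RPKM at 0 h.

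Promoters of 8 genes that differed at 1 h are shown because they hold an ISRE core, a GAS or both. Each runs from 250 bases before to 50 after the start, is printed 5′ to 3′ in the direction of the gene, and comes from RefSeq (GRCm38.p6, the assembly of mm10). Capitals mark matches, on either strand, to the ISRE core (GAAA, then any 2 bases, then GAAA) or the GAS TTCNNNGAA. A match describes letters in this window and is no proof of binding. The first 4 are effector genes. Ifit1 lies at chr19:34640639-34640938 (+ strand), Cxcl10 at chr5:92348840-92349139 (- strand), Isg15 at chr4:156200769-156201068 (- strand) and Igtp at chr11:58199306-58199605 (+ strand).
Ifit1: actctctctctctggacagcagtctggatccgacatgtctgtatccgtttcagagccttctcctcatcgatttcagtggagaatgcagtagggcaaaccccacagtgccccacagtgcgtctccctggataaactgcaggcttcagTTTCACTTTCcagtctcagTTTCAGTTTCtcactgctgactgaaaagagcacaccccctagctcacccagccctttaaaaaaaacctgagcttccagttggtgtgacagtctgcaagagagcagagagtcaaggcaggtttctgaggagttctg
Cxcl10: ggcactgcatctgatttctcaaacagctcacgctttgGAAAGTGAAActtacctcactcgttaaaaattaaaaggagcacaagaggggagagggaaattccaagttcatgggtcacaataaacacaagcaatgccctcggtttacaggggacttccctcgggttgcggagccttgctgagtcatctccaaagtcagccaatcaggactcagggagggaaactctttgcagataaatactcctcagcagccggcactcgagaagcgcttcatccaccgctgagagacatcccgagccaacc
Isg15: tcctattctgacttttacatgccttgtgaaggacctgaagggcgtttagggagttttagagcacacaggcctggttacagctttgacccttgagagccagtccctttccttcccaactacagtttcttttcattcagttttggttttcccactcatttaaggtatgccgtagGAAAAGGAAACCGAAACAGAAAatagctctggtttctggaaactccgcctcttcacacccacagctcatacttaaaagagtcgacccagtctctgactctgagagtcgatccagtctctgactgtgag
Igtp: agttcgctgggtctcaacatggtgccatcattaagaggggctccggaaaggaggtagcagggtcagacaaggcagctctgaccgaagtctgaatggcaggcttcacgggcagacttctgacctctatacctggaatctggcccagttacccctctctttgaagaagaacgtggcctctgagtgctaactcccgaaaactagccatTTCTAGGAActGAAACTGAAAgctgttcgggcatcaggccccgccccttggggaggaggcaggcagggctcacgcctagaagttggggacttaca
Ifit1 has separate ISRE core matches at -104 and -85 relative to the start. Cxcl10 has a match at -213. Isg15 has overlapping matches at -78, -72 and -66. Igtp has an ISRE core at -34 with a GAS just before it, at -45.

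The other 4 are regulators. Socs1 lies at chr16:10785487-10785786 (- strand), Irf1 at chr11:53769764-53770063 (+ strand), Socs3 at chr11:117969317-117969616 (- strand) and Cish at chr9:107296409-107296708 (+ strand).
Socs1: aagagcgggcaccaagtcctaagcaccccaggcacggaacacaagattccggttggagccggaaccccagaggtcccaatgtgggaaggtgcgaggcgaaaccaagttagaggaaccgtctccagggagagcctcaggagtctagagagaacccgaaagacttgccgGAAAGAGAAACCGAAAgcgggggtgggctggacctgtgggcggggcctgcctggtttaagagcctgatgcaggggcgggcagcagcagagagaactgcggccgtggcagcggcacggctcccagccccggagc
Irf1: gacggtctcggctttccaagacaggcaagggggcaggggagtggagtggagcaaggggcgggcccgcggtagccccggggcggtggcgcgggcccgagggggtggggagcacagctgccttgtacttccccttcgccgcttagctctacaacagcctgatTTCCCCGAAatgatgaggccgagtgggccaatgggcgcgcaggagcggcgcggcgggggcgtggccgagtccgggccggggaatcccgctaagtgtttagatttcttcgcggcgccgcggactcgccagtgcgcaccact
Socs3: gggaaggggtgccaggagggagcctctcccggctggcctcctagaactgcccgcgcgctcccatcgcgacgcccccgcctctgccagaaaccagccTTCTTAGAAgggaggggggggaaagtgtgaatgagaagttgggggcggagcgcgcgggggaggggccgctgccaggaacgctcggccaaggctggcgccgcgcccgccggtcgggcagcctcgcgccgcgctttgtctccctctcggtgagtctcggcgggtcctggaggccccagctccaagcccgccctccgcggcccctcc
Cish: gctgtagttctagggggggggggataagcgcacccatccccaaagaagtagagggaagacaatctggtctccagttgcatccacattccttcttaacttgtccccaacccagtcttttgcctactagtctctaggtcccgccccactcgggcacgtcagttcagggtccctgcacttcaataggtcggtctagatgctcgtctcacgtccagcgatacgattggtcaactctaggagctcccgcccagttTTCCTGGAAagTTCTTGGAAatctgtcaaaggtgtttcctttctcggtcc
Socs1 has overlapping ISRE cores at -83 and -77. Irf1 has a GAS at -90 and Socs3 a GAS at -154, and neither has an ISRE core here. Cish has a pair of GAS matches starting at 0 and 11, counted with the start as 0, and its window is set from a start 30 bases from that of the kept transcript.

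Among 246 genes higher at 1 h, 164 matched the promoter table by gene ID and 153 of these had a start within 100 bases of the kept transcript's start. The same held for 9523 and 8778 of the 12168 genes. An ISRE core was found in 46 of 153 promoters (30.1%, exact 95% interval 22.9 to 38.0). The share was 275 of 8778 (3.13%) over all genes passing the filter and 3.44% of the whole table. The interval takes promoters as independent, and related gene copies among them make it too narrow. For genes 4-fold or more higher it was 28 of 59 (47.5%). A GAS was found in 19.6% of the 153 promoters, against 6.99% of the 8778. The AP-1 motif TGANTCA was in 13.7% against 4.75%, the NF-kB consensus in 13.7% against 10.5%, and the CArG box of serum response factor in 2.61% against 1.34%. In 2 of the 153 promoters an ISRE core and a GAS overlapped. The ISRE share differed with timing. Promoters of higher genes with their highest naive level after 1 h held an ISRE core in 44 of 112 (39.3%), and those of genes highest at 1 h held it in 2 of 41 (4.88%). AP-1 matches also differed with timing, in 21 of 112 (18.8%) of the promoters of genes highest after 1 h and in 0 of 41 of those highest at 1 h. The GAS share was 19.6% and 19.5% in the same groups, and the NF-kB share 11.6% and 19.5%.

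**Figure D2:**
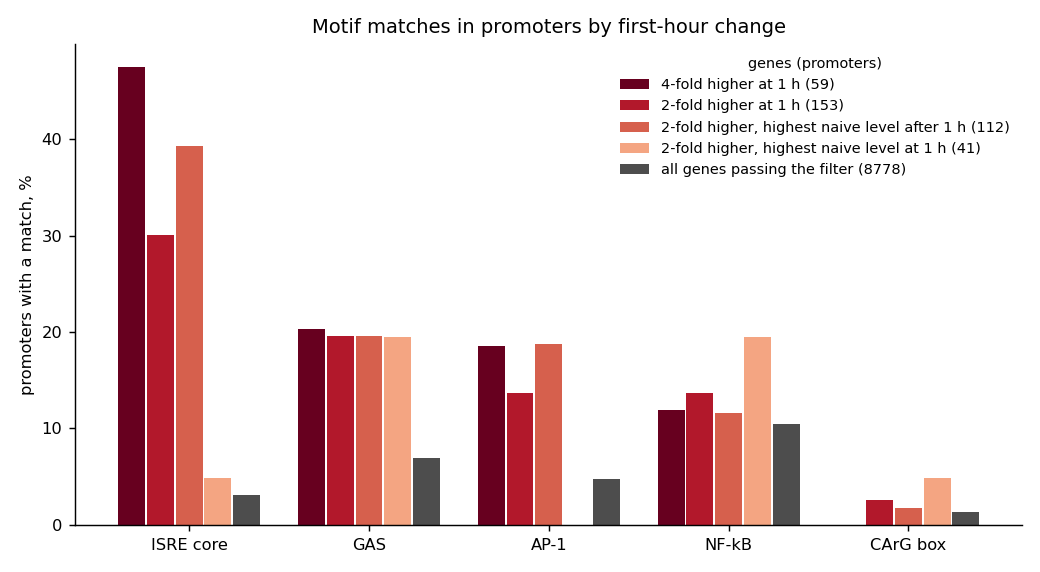
Share of promoters (percent, from 250 bases before to 50 after the start) with at least 1 match to each motif on either strand, for genes 4-fold and 2-fold higher at naive 1 h, the 2-fold genes split by when their naive level was highest, and all genes passing the filter, with the number of promoters in the legend. The ISRE core was in 47.5% of the promoters of genes 4-fold higher, 39.3% of those highest after 1 h, 4.88% of those highest at 1 h and 3.13% of all genes.

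Genes for parts of the ISGF3 factor stood higher at 1 h, and those for the receptor and its kinases did not reach 2-fold. Of 11 measured genes for the interferon receptor, JAKs and STATs, 3 were 2-fold higher at 1 h and none was lower, with a list median of 0.26 against -0.01 over all genes. Stat2 and Irf9 were among them. Stat2 had 98.1 RPKM at 1 h, against 9.30 RPKM at 0 h, a log2 difference of 3.27. Irf9 had 53.3 RPKM at 1 h and 11.6 at 0 h, a difference of 2.11. The receptor chain Ifnar1 had 15.6 RPKM at 1 h, against 17.7 RPKM at 0 h. The kinase Jak1 had 41.9 RPKM at 1 h and 41.6 at 0 h, and Tyk2 had 6.41 RPKM at 1 h and 6.17 at 0 h. Stat3 lay between, with 87.5 RPKM at 1 h, against 64.8 RPKM at 0 h, a difference of 0.43.

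Interferon regulatory factors are transcription factors that bind ISRE-like sites, and 2 of the 5 measured in their list were higher at 1 h. Irf9, also of this family and higher at 1 h, is counted with the receptor, JAKs and STATs above. Irf1 had 205 RPKM at 1 h, against 18.5 RPKM at 0 h, a log2 difference of 3.40. Irf7, which amplifies interferon gene transcription, had 32.4 RPKM at 1 h and 2.22 at 0 h, a difference of 3.37. Irf3, which is known to be held ready as protein and activated after translation, had 14.96 RPKM at 1 h, against 14.3 RPKM at 0 h. Irf4 and Irf8 did not pass the filter. The gene Ifnb1 for IFN-β did not pass it either.

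Inhibitors that end cytokine signalling were among the strongest early genes. Of 16 measured feedback genes, 4 were 2-fold higher and none lower, with a list median of 0.19, and all 4 are inducible inhibitors. Socs1, which blocks JAK kinases, had 161 RPKM at 1 h, against 8.90 RPKM at 0 h, a log2 difference of 4.03. Socs3, the inhibitor best known downstream of STAT3, had 213 RPKM at 1 h and 24.7 at 0 h, a difference of 3.06. Cish, a family member best known downstream of STAT5, had 22.1 RPKM at 1 h and 2.91 at 0 h, a difference of 2.56. Usp18 is given above. The other measured members did not reach 2-fold, among them Socs2 at 0.50. Ptpn1 had 40.9 RPKM at 1 h, against 21.7 RPKM at 0 h, a difference of 0.89, and Pias1 differed by -0.34.

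Secreted signals were led by chemokines. Of 20 measured chemokine and cytokine genes, 5 were 2-fold higher and none was lower, with a list median of 0.25. Beside Cxcl10, Ccl2, which attracts monocytes, had 678 RPKM at 1 h, against 95.1 RPKM at 0 h, a log2 difference of 2.82. Ccl7, its neighbour on chromosome 11, had 314 RPKM at 1 h and 52.8 at 0 h, a difference of 2.55. Il6, an inflammatory cytokine, had 3.81 RPKM at 1 h, against 0.01 RPKM at 0 h. The 0 h level comes from 1 count, so its ratio of 388 has an interval of 69.4 to 15346. Tnfsf10, the death ligand TRAIL, had 3.40 RPKM at 1 h and 0.097 at 0 h, a difference of 2.004. Ccl11, the eosinophil chemokine eotaxin next to Ccl7, is in no list here and was chosen after its values were seen. It had 570 counts at 1 h and none at 0 h, which is 118-fold higher when the 0 h library is set at 3 counts. The exact 95% interval of its ratio, counting error only, starts at 96.1. The most abundant chemokine without a 2-fold difference was Cxcl12, which guides stem cells and lymphocytes. It had 518 RPKM at 1 h, against 529 RPKM at 0 h. Cxcl9 and Cxcl11, both known targets of interferons, stood at 0.807 and 0.13 RPKM at 1 h, against 0.07 and 0 RPKM at 0 h.

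Antiviral effectors formed a broad group. Of 33 measured, 20 were 2-fold higher and none was lower, with a list median of 1.36. Ifit3, a partner of Ifit1, had 76.0 RPKM at 1 h, against 1.38 RPKM at 0 h, a log2 difference of 5.02. The near-identical I830012O16Rik differed by 4.56, and reads of these 2 genes may not be separable. Rsad2, the radical-SAM enzyme viperin, had 21.4 RPKM at 1 h and 0.302 at 0 h, a difference of 4.11, and its neighbour Cmpk2, a nucleotide kinase, had 15.8 RPKM at 1 h and 0.147 at 0 h, a difference of 3.87. Isg15, the ubiquitin-like modifier, had 15.9 RPKM at 1 h, against 0.608 RPKM at 0 h, a difference of 3.40. Of 8 listed genes of the oligoadenylate synthetase family, known for switching on RNase L, 4 were 2-fold higher. These 8 ranged between 0.32 and 3.29. Oas1h, which just passed the filter, is not in the list and is not counted. Oasl2 had 21.2 RPKM at 1 h and 1.27 at 0 h, a difference of 3.29, and Oas1b had 15.9 RPKM at 1 h and 0.833 at 0 h, a difference of 3.20. Eif2ak2, the kinase PKR that stops translation on sensing dsRNA, had 38.4 RPKM at 1 h, against 9.75 RPKM at 0 h, a difference of 1.88. The members most abundant at 0 h did not reach 2-fold. Ifitm3, which blocks virus entry, had 1018 RPKM at 1 h, against 773 RPKM at 0 h, and Ifitm2 had 459 RPKM at 1 h and 379 at 0 h.

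Interferon-inducible GTPases, which act on vacuoles that hold bacteria or parasites, were the list with the highest median, 2.89. Of 18 measured, 16 were 2-fold higher and none was lower. Gbp4 and Gbp8 fell short at low levels, with differences of 0.77 and 0.31. Gbp4 had 0.737 RPKM at 1 h and 0.017 at 0 h, Gbp8 had 0.249 RPKM at 1 h and 0.009 at 0 h, and with a pseudocount of 0.1 RPKM all 18 were 2-fold higher. In the guanylate-binding family, Gbp2 had 73.7 RPKM at 1 h, against 2.41 RPKM at 0 h, a log2 difference of 4.45, and Gbp7 had 21.4 RPKM at 1 h and 0.647 at 0 h, a difference of 3.77. In the immunity-related family, Irgm1 had 159.7 RPKM at 1 h, against 13.0 RPKM at 0 h, a difference of 3.52. Igtp had 59.5 RPKM at 1 h and 1.94 at 0 h, a difference of 4.36, and Irgm2 had 67.2 RPKM at 1 h and 4.03 at 0 h, a difference of 3.76. Irgm1, Irgm2 and Igtp are known as regulators of the other family members. Tgtp1 and Tgtp2 are near-identical, so their reads may not be separable, and each differed by 3.66. An ISRE core was present in 9 of 9 promoters of this list that were matched, and a GAS in 6 of 9.

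Of 21 measured sensors of foreign nucleic acid, their adaptors and helpers, 13 were 2-fold higher and none was lower, with a list median of 1.73. The cytosolic RNA sensors Ddx58 (RIG-I) and Ifih1 (MDA5) had 38.8 and 10.5 RPKM at 1 h, against 8.57 and 1.49 RPKM at 0 h. Of 7 listed genes of the PYHIN family, known for DNA sensing, 5 were higher. Pyhin1 (0.51) and Aim2 (0.015), both under 1 RPKM, were not. Ifi203 had 28.6 RPKM at 1 h, against 1.31 RPKM at 0 h, a log2 difference of 3.68, and Mndal had 48.6 RPKM at 1 h and 3.897 at 0 h, a difference of 3.34. Tlr3, the endosomal receptor for dsRNA, had 14.1 RPKM at 1 h and 2.98 at 0 h, a difference of 1.93. The adaptors were uneven. Myd88 had 49.0 RPKM at 1 h, against 16.1 RPKM at 0 h, a difference of 1.55, and Tmem173 (STING) had 58.2 RPKM at 1 h and 25.6 at 0 h, a difference of 1.15. Mavs, the mitochondrial adaptor of RIG-I, differed by -0.32.

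In antigen presentation, the largest differences were those of processing genes. Of 25 measured genes, 6 were 2-fold higher and none was lower, with a list median of 0.61. Psmb8 and Psmb9, catalytic subunits of the immunoproteasome, and Tap1, a peptide transporter, lie side by side on chromosome 17. Psmb8 had 9.77 RPKM at 1 h, against 0.463 RPKM at 0 h, a log2 difference of 2.88. Tap1 had 39.2 RPKM at 1 h and 7.01 at 0 h, a difference of 2.33, and Psmb9 had 11.4 RPKM at 1 h and 1.498 at 0 h, a difference of 2.31. The presenting chains differed less. B2m, the light chain shared by class I molecules, had 1352 RPKM at 1 h, against 990.0 RPKM at 0 h, a difference of 0.45. H2-D1 had 47.6 RPKM at 1 h and 31.0 at 0 h, a difference of 0.61. The class I relatives H2-Q4 and H2-T23 were the presenting genes past 2-fold, with differences of 1.84 and 1.12, and reads of related genes of this family may not be separable.

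Of 17 measured genes for ISG15 conjugation and ubiquitin-type ligases, 11 were 2-fold higher and none was lower, with a list median of 1.16. Genes for each step of ISG15 conjugation were among them, namely the modifier Isg15, the activating enzyme Uba7 (difference 1.45), the conjugating enzyme Ube2l6 (1.16), the ligase Herc6 (1.196) and the protease Usp18. Trim25, a ligase that promotes RIG-I signalling, had 57.0 RPKM at 1 h, against 10.0 RPKM at 0 h, a difference of 2.39. In the PARP family of ADP-ribosyl transferases, 4 of 11 were higher, with a list median of 0.34. Parp14 had 19.2 RPKM at 1 h, against 1.72 RPKM at 0 h, a log2 difference of 2.90, and Parp9 and its partner Dtx3l, which lie beside it, differed by 1.81 and 2.78. Parp1, the main DNA-damage PARP, had 22.2 RPKM at 1 h and 22.8 at 0 h. Of 18 genes for cell death and nuclear bodies, 3 were higher, with a list median of 0.45. These were Casp4, an inflammatory caspase (difference 2.07), the death receptor Fas (1.35) and Daxx.

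Daxx is also a chaperone that deposits H3.3, the histone tagged in these cells. It had 53.5 RPKM at 1 h, against 17.8 RPKM at 0 h, a log2 difference of 1.54, and it was the single member of 18 measured H3.3 genes and histone chaperones that reached 2-fold. The list median was -0.09. H3f3b, whose locus carries the exchange, was listed at 13.8 RPKM at 1 h, against 14.9 RPKM at 0 h, and the untouched H3f3a had 89.3 RPKM at 1 h and 84.5 at 0 h. The chaperones Hira and Atrx differed by -0.08 and -0.01.

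**Figure D3:**
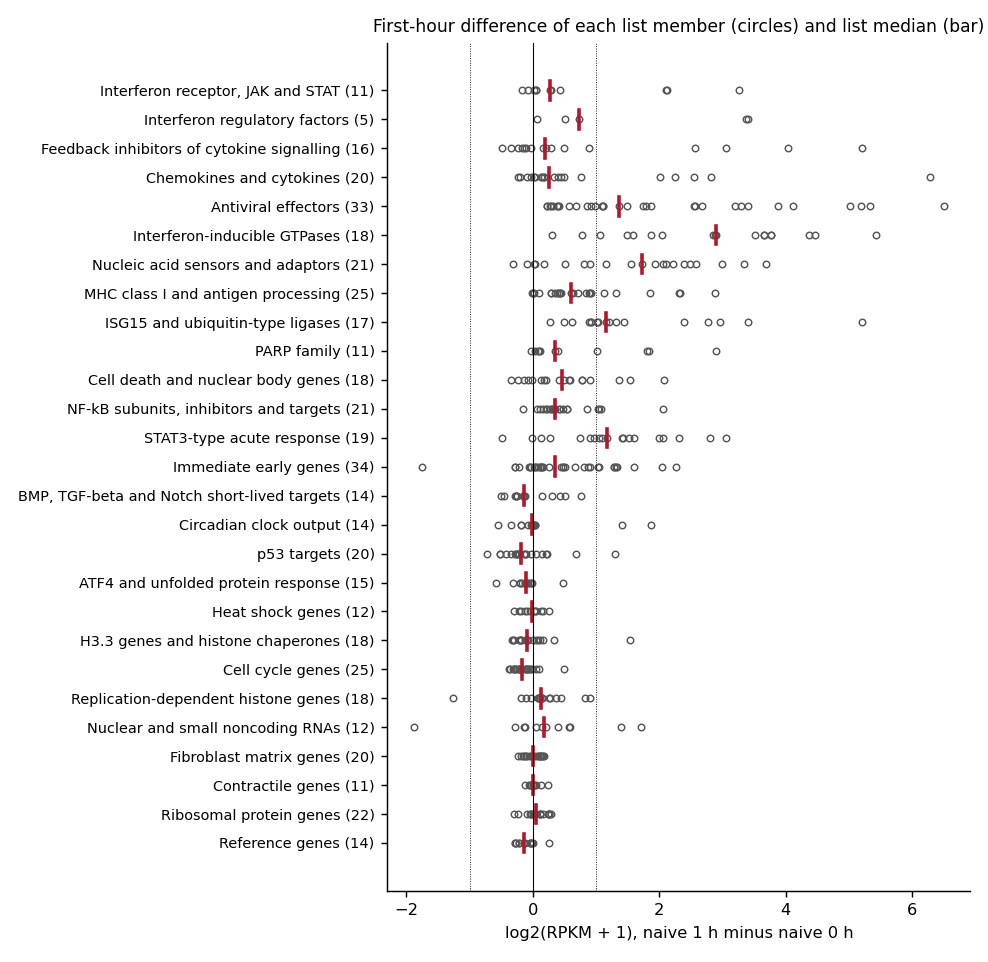
Difference of log2(RPKM + 1), naive 1 h minus 0 h, for each measured member of the gene lists (1 point per gene), with the list median as a bar, the 2-fold bounds as dotted lines and the number of genes in brackets. The GTPases have the highest median, 2.89, and the matrix, contractile, ribosomal and cell cycle lists have no member past 2-fold. With 2.02% of all genes higher and 0.181% lower, a list of this size often has none.

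A set of genes usually linked to STAT3 stood high at 1 h as well. Of 19 measured members, 12 were 2-fold higher and none was lower, with a list median of 1.17. This list was assembled with earlier results of these data known, so its count is no independent evidence of direction. Cebpd, a transcription factor of the acute-phase response, had 109.8 RPKM at 1 h, against 14.9 RPKM at 0 h, a log2 difference of 2.80. Bcl3, an IkB-family cofactor, had 94.4 RPKM at 1 h and 21.9 at 0 h, a difference of 2.06. Has1, which makes hyaluronan, had 12.9 RPKM at 1 h and 1.80 at 0 h, a difference of 2.31. Further members were Serpina3n (2.0004), Junb (1.60), the kinases Pim3 (1.53) and Pim1 (1.42), and Cebpb (1.41). Osmr, a receptor of IL-6 family cytokines, had 116 RPKM at 1 h, against 59.1 RPKM at 0 h, a difference of 0.96. The most abundant members, Timp1 and the signalling receptor Il6st, differed by -0.01 and 0.28. Among the 15 matched promoters of this list, none held an ISRE core and 1 (6.67%) held a GAS. Over all genes passing the filter the shares were 3.13% and 6.99%, so with 15 promoters neither count stands apart.

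Of 21 measured NF-kB genes, 4 were 2-fold higher, with a list median of 0.36. Rela and Vcam1, among the most abundant, differed by 0.21 and 0.11. Those past 2-fold were Bcl3, the adhesion molecule Icam1 (1.08), Ier3 (1.04) and the nuclear cofactor Nfkbiz (1.03). Nfkbia, the inhibitor IkBα that NF-kB itself switches on, had 47.9 RPKM at 1 h, against 53.8 RPKM at 0 h. Of 34 immediate early genes, which answer growth factors and stress, 9 were higher and 1 was lower, with a list median of 0.35. Dusp5, a phosphatase of ERK, had 47.2 RPKM at 1 h, against 9.07 RPKM at 0 h, a log2 difference of 2.26. Atf3, a stress-response repressor, had 8.28 RPKM at 1 h and 1.27 at 0 h, a difference of 2.03. Among the others past 2-fold were Junb, Nr4a1 (1.33), Egr2 (1.31), Jun (1.29) and Zfp36 (1.29). Fos and Egr1 did not reach 2-fold. Fos differed by 0.66, with 5.94 RPKM at 1 h, against 3.38 RPKM at 0 h, and Egr1 by -0.04, with 108 RPKM at 1 h and 111 at 0 h. The other most abundant members, Zfp36l1 and Cyr61, differed by -0.03 and -0.22. Nfil3 and Bhlhe40, transcriptional repressors that feed into the circadian clock, differed by 1.87 and 1.41, as 2 of 14 measured clock genes past 2-fold (list median -0.01). Gadd45g, a stress gene, was the member past 2-fold among 20 p53 targets (list median -0.18), at 1.29.

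Housekeeping and cell-identity lists had no member past 2-fold in the naive pair. With 2.02% of all genes higher and 0.181% lower, a list of this size often has none. The absence is therefore not read as a trait of any single list. This held for 20 matrix genes (median -0.01), 11 contractile genes (0.01), 22 ribosomal protein genes (0.05), 25 cell cycle genes (-0.17), 12 heat shock genes (-0.02), 15 genes of ATF4 and the unfolded protein response (-0.12), 14 short-lived targets of BMP, TGF-beta and Notch (-0.15) and 14 reference genes (-0.14). The reference genes ranged between -0.29 and 0.25. Of 18 replication-dependent histone genes, 1 was lower, Hist2h4 at -1.27 (list median 0.13), and reads of histone gene copies may not be separable.

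The 22 genes lower at 1 h were mostly short and thinly counted. Of these, 14 had fewer than 300 exonic bases, against 31 of the 246 higher genes and 191 of all 12168. Fewer than 100 counts at 1 h were found for 13 of the 22, against 27 of the 246 higher genes. The share of all genes under 100 counts is not given here. The largest difference was that of Snord52, a small nucleolar RNA, at -2.68, which rests on 14 counts at 1 h and 86 at 0 h. The host gene Snhg9 had 7.61 RPKM at 1 h, against 30.8 RPKM at 0 h, a log2 difference of -1.88. Mir684-2, Snora34, Mir194-1, Mir421, Mir703 and Mir684-1 followed, from -1.82 to -1.33. Among longer transcripts, Dusp1, a phosphatase that switches off p38 and JNK, had 10.2 RPKM at 1 h, against 36.5 RPKM at 0 h, a difference of -1.75. Ppp1r3c, a glycogen-targeting subunit of protein phosphatase, had 1.58 RPKM at 1 h and 6.10 at 0 h, a difference of -1.46. Dusp1 had 36.5, 10.2, 15.3, 33.8 and 29.6 RPKM at naive 0, 1, 2, 4 and 6 h. The 1 h library was the lowest of the 5. Of 12 measured nuclear and small noncoding RNAs, 2 were higher and 1, Snhg9, was lower, with a list median of 0.18. Rmrp and Rpph1, the RNA parts of RNases MRP and P, had 21.9 and 32.8 RPKM at 1 h, against 5.98 and 11.9 RPKM at 0 h. In the pretreated arm both had the opposite sign, with differences of -1.29 and -1.38.

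The later naive libraries place the 1 h level in the course. Of the 246 higher genes, 68 had their highest naive level at 1 h. For 40 genes it came at 2 h, for 43 at 4 h and for 95 at 6 h. At 6 h, 118 were at least 2-fold above their 1 h level, and 47 had a 1 h level at least 2-fold above that at 6 h. Shares of all genes for these counts are not given here. For the 68 genes highest at 1 h, the median at 0, 1 and 6 h was 4.91, 14.7 and 5.16 RPKM. They were chosen for being highest at 1 h, so a 1 h median above the others is fixed by that choice. Socs3 had 24.7, 213, 27.4, 13.2 and 14.2 RPKM at 0, 1, 2, 4 and 6 h. Cebpd had 14.9, 109.8, 21.8, 9.61 and 10.2 RPKM, and Cish had 2.91, 22.1, 4.57, 2.32 and 1.68 RPKM, at the same times. For these genes the 1 h library stood alone, and by 4 h they were below their starting level. Irf1 and Socs1 had their maximum at 1 h but stayed above 0 h throughout. Irf1 had 18.5, 205, 115, 97.8 and 87.4 RPKM, and Socs1 had 8.90, 161, 157, 92.6 and 65.0 RPKM. Effector genes stood higher at the later times than at 1 h. Ifit1 had 3.14, 374, 1276, 1132 and 952 RPKM, Cxcl10 0.631, 126, 840, 1051 and 1101 RPKM, and Isg15 0.608, 15.9, 62.0, 195 and 254 RPKM. Gbp2 had 2.41, 73.7, 437, 619 and 810.3 RPKM at the same times. Isg15 was below Socs3 at 1 h and above it from 2 h on.

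**Figure D4:**
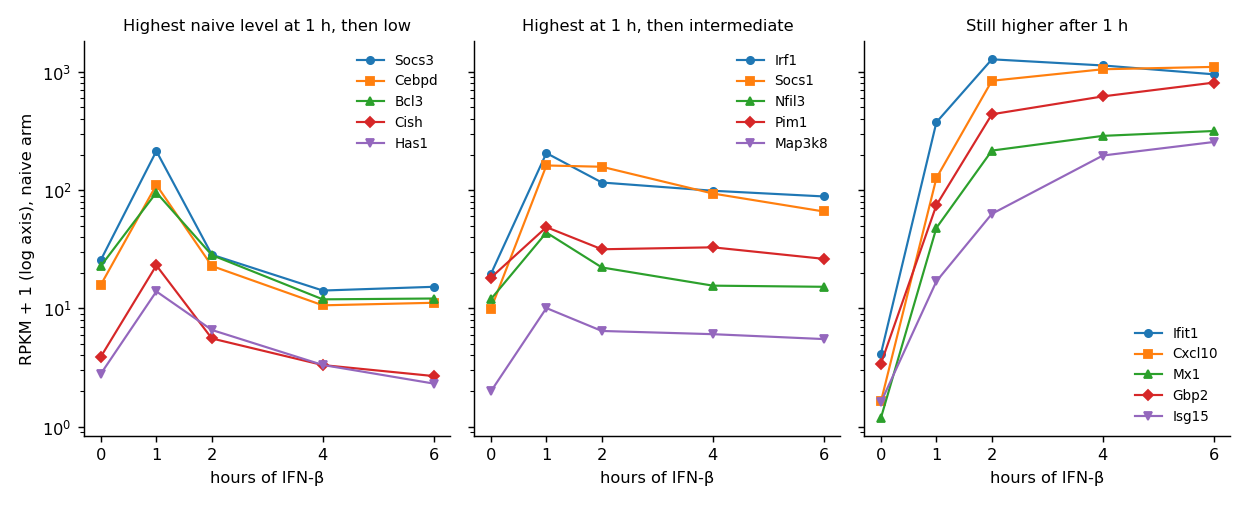
RPKM + 1 (vertical axis, log scale) at naive 0, 1, 2, 4 and 6 h (horizontal axis, hours) for 5 genes in each of 3 panels, 1 library per point, genes chosen after their values were seen. Socs3, Cebpd, Bcl3, Cish and Has1 stand out at 1 h and are near or below their 0 h level by 4 h, Irf1, Socs1, Nfil3, Pim1 and Map3k8 are highest at 1 h and stay above 0 h, and Ifit1, Cxcl10, Mx1, Gbp2 and Isg15 are higher at 2 h than at 1 h.

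The higher genes, short noncoding loci included, had a shorter median span than all genes. Gene span and exon number could be read for 242 of the 246 higher genes. Their median span was 10.3 kb with 5 exons, against 20.2 kb and 8 exons over all 12040 genes with single coordinates. The genes highest at 1 h had a median of 6.30 kb and 3 exons, and those highest later 11.1 kb and 6 exons. Transcripts under 300 exonic bases made up 31 of the 246 higher genes, against 191 of all 12168. Their part in these medians was not tested. The higher genes also lay near each other. Another higher gene was within 100 kb for 95 of 242 (39.3%), whereas 802 of 12040 genes (6.66%) had a higher gene other than themselves that near. On chromosome 19, 7 of 8 measured genes in chr19:34473784-34650009 were higher, among them Ch25h, Ifit1, Ifit2 and Ifit3. On chromosome 11, 7 of 13 in chr11:48802033-49064212 were higher, among them Irgm1, Tgtp1 and Tgtp2. On chromosome 1, 6 of 6 measured genes in chr1:173723428-174031755 were higher, mostly of the PYHIN family, and on chromosome 3, 4 of 5 in chr3:142496934-142638008 were, namely Gbp2, Gbp3, Gbp5 and Gbp7. These coordinates are mm10. Many genes of a cluster are related copies and can share reads, so they are not independent counts.

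The pretreated arm offers the same hour in cells labelled pretreated, from libraries the naive pair does not share. There 159 genes (1.31%) were 2-fold higher at 1 h than at 0 h and 31 (0.255%) were lower. Of the naive higher genes, 69 were higher in both arms, which is 28.0% of the naive list and 43.4% of the pretreated list. Lower in both were Dusp1, Hist2h4 and Snhg9. The 246 naive genes had a median difference of 1.65 in naive cells and 0.61 in pretreated cells. They were chosen for a naive difference of 1 or more, so the gap between these medians is partly fixed by that choice. Their median level was 13.5 RPKM at naive 1 h, 2.36 RPKM at naive 0 h, 21.4 RPKM at pretreated 1 h and 11.6 RPKM at pretreated 0 h. For 91 of them the pretreated 0 h level was already above the naive 1 h level. The share of all genes for which this held is not given here.

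GTPases were higher at 1 h in the pretreated arm too. Of 18, 16 were higher in naive and 14 in pretreated cells, with medians of 2.89 and 1.40. Igtp differed by 1.48 in pretreated cells, which had 133.6 RPKM at 1 h, against 47.2 RPKM at 0 h. Antiviral effectors were higher in 20 and 11 of 33, with medians of 1.36 and 0.60. Rsad2 differed by 4.11 in naive and 4.42 in pretreated cells, Socs1 by 4.03 and 3.34, Irf1 by 3.40 and 2.23, and Cxcl10 by 6.28 and 5.27. Other genes stood at a high level from 0 h on in the pretreated arm. Irf7 differed by 3.37 in naive and -0.05 in pretreated cells, which had 174 RPKM at 1 h and 180.0 at 0 h. Oasl2 differed by 3.29 and 0.22, and pretreated cells had 193 RPKM at 1 h and 165 at 0 h. Rtp4, a chaperone of receptors, differed by 4.22 and 0.31, and pretreated cells had 168 RPKM at 1 h and 136 at 0 h. Psmb8 differed by 2.88 and 0.18, and pretreated cells had 68.0 RPKM at 1 h and 59.8 at 0 h. In each of these genes both pretreated levels were above the naive 1 h level.

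No gene of the STAT3-linked list reached 2-fold in pretreated cells. Of 19, 12 were higher in the naive and 0 in the pretreated arm, with medians of 1.17 and -0.15. Socs3 had 213 RPKM at naive 1 h and 24.7 RPKM at naive 0 h, and 15.9 RPKM at pretreated 1 h and 20.7 RPKM at pretreated 0 h. Cebpd had 109.8 RPKM at 1 h and 14.9 at 0 h in naive cells, and 16.2 RPKM at 1 h and 15.6 at 0 h in pretreated cells. Bcl3 had 94.4 RPKM at 1 h and 21.9 at 0 h in naive cells, and 10.6 RPKM at 1 h and 20.2 at 0 h in pretreated cells. Of these values, the naive 1 h level stands alone, so the contrast of the arms rests on 1 library. Rab20, a small GTPase of endosomes, had 7.52 RPKM at 1 h and 0.429 at 0 h in naive cells, and 1.78 RPKM at 1 h and 3.06 at 0 h in pretreated cells, differences of 2.58 and -0.55. Immediate early genes were higher in 9 naive and 3 pretreated cases of 34. Nr4a1, an orphan nuclear receptor, differed by 1.33 and 1.94, and Egr1 by -0.04 and 1.07. No difference between the arms was tested, since each rests on single libraries.

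**Figure D5:**
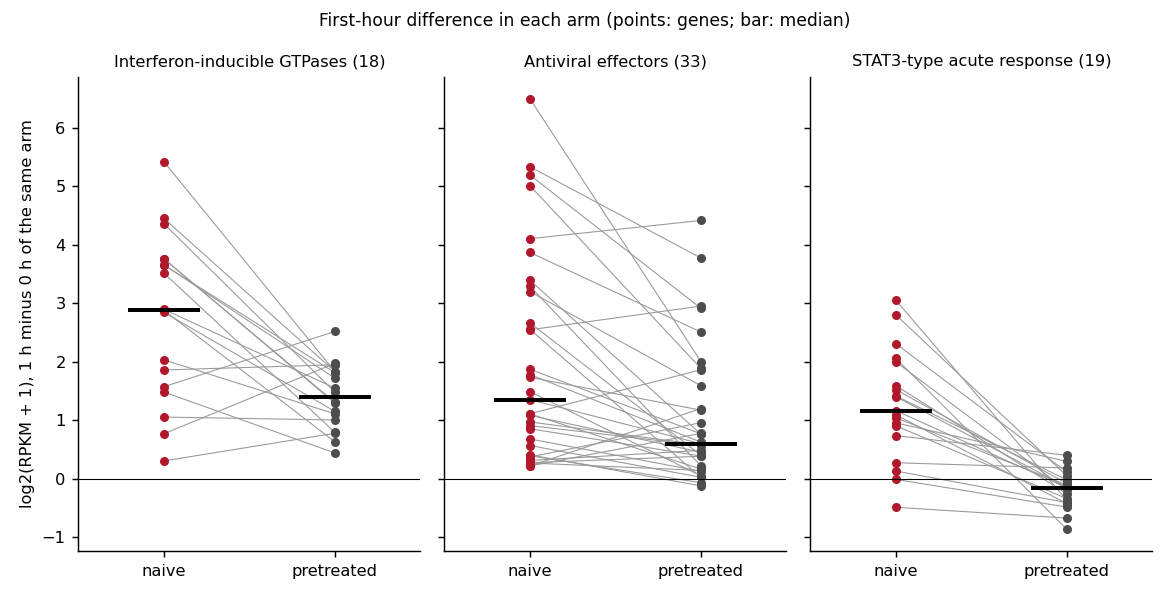
Difference of log2(RPKM + 1), 1 h minus 0 h, on the vertical axis, in naive cells (left) and pretreated cells (right), with 1 point per gene, a line joining its values and a bar at the median, for 18 GTPases, 33 antiviral effectors and 19 STAT3-type genes. The GTPases have medians of 2.89 and 1.40, and the STAT3-type genes 1.17 and -0.15.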

How the data were processed

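Bowtie, TopHat and Cufflinks 1.2.1, with mm10, are listed in the submitters' processing notes without their roles. Per the file headers, the deposited table holds a tag count and an RPKM value for each RefSeq transcript and library. The counts are unnormalised, and the RPKM values were computed by the authors. Coordinates and exon starts are also as the authors deposited them. The sources used here do not give the counting tool, its use of strand or its handling of multi-mapping reads, so reads of overlapping or near-identical genes may not be separable. The table had 30646 transcripts, and 15 of them named no gene and were left out (0.0193% of counts at naive 1 h, 0.0171% at naive 0 h).

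For each symbol the transcript with the highest mean RPKM over the 10 libraries was kept, and genes with 1 RPKM or more in at least 2 libraries were used. A gene was called at a 2-fold difference of log2(RPKM + 1), and the pseudocount of 1 RPKM understates folds of low genes and can keep them below 2-fold. Groups are the libraries' titles. Exact 95% intervals of RPKM ratios come from the counts and cover counting error only, since PCR copies and cultures add to it. With 1 library per group no test was made. Some genes of the lists are not reported here. The rule for named genes took the 20 largest differences upwards and the 10 largest downwards, the 4 most abundant members of each list, the 10 largest naive differences with a pretreated one under 0.5, and allowed further list members beside their list; not all genes it takes are printed, most of the others being list members inside 2-fold. Ccl11 was added after its values were seen. The members of the lists and the comparison were chosen with earlier results of these data known. Promoters and gene IDs are from RefSeq tables. In simulated counts with counting error only, nearly all 4-fold differences were recovered for genes at 10 RPKM or more at naive 0 h. Lower genes were not scored, and smaller differences and spread between cultures were not simulated, so calls there remain unchecked. Alternatives were another pseudocount, filter, scaling or transcript choice. Tools were Python 3.11.15 with pandas 2.3.3 and scipy 1.17.1, and R 4.3.3 with edgeR 4.0.16 and DESeq2 1.42.0 for scaling factors only.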

Additional observations from a re-analysis of the deposited data

Results flagged for a closer look

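Of the 246 genes higher in naive cells, 46 had a pretreated difference of 0 or less. Over all genes passing the filter the median pretreated difference was 0.01, so values around 0 were usual. The count of 46 is therefore no sign of a reversed group. Those the naming rule takes and whose opposite difference was at least 0.25 in size are given here, and some of these pretreated differences are small. Each value is a log2(RPKM + 1) difference, 1 h minus 0 h, from 1 library per arm and time, and the difference between the arms was not tested. Socs3 differed by 3.06 in naive and -0.37 in pretreated cells, Rab20 by 2.58 and -0.55, and Bcl3 by 2.06 and -0.86. Junb differed by 1.60 and -0.25, Bhlhe40 by 1.41 and -0.66, and Ier3 by 1.04 and -1.07. The median of the 19 STAT3-type genes was 1.17 in naive and -0.15 in pretreated cells. Mir703, a microRNA locus under 300 bases long, went the other way, with -1.39 in naive and 0.50 in pretreated cells.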

How the results depend on the processing

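No paired analysis was possible because each arm and time has 1 library, and for the same reason no library could be left out. With 200 results and 11 alternatives, 1792 values stayed within a set tolerance, 180 moved further, and 0 of the values past 2-fold changed sign. For a single gene, another pseudocount cannot change the sign, and another filter or leaving genes out keeps its value as it was. Only scaling or transcript choice could have changed it, so much of this stability was fixed in advance. The tolerance was 1.5 times for counts and 0.25 for list medians. For single genes it was the counting interval, and for the ISRE share its exact interval over promoters. A pseudocount of 0.1 RPKM gave 410 genes higher and 75 lower, with 8 chemokines and 5 cell death genes higher. A pseudocount of 5 RPKM gave 129 higher and 6 lower, with 3 chemokines, 6 ISG15 and ubiquitin genes and 1 NF-kB gene higher, and an ISRE core in 38.4% of promoters. Without a filter 37 genes were lower, and a filter of 5 RPKM in either library left 3 chemokines higher. Leaving out transcripts under 300 exonic bases, chosen after seeing the data, left 8 genes lower and 1 nuclear or small noncoding RNA higher. Scaling by TMM or by DESeq2 size factors gave 247 genes higher in each case, and quantile normalisation 227. With a pseudocount of 5 RPKM, 48 of 54 genes past 2-fold that the naming rule takes by rank remained so, and 84 of 113 list members did. Parp12 fell short under quantile normalisation (0.99) and Mir684-1 with the longest transcript (-0.64). Depth limits genes near 0 RPKM, since 70 of the 246 higher genes had under 100 counts at 0 h.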

Other observations

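Of the 246 genes higher at naive 1 h, 136 stand in no gene list, and those named here were chosen after their values were seen. Cd274, the immune checkpoint ligand PD-L1, had 11.8 RPKM at naive 1 h and 0.420 RPKM at naive 0 h. In pretreated cells it had 29.8 RPKM at 1 h and 1.89 RPKM at 0 h. Arid5a, an RNA-binding protein known to stabilise Il6 mRNA, had 16.8 RPKM at 1 h and 1.54 at 0 h in naive cells, and 3.49 RPKM at 1 h and 1.14 at 0 h in pretreated cells. Helz2, a helicase, had 37.3 RPKM at 1 h and 3.57 at 0 h in naive cells, and 43.3 RPKM at 1 h and 26.2 at 0 h in pretreated cells. Samd9l, an antiviral restriction factor, had 34.1 RPKM at 1 h and 4.83 at 0 h in naive cells, and 74.8 RPKM at 1 h and 35.0 at 0 h in pretreated cells. Slfn8, of the Schlafen family, had 13.1 RPKM at 1 h and 0.956 at 0 h in naive cells, and 38.6 RPKM at 1 h and 16.01 at 0 h in pretreated cells. Sectm1a had 534 counts at naive 1 h and none at naive 0 h, 111-fold higher against 3 counts. The exact 95% interval of its ratio, counting error only, starts at 90.0. At pretreated 0 h, Cd274 was below its naive 1 h level, whereas Samd9l and Slfn8 were above theirs.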
